A study of Homo sapiens with 8 samples.

Results

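The 8 genes followed here are known from white blood cells and were measured in HepG2, a line derived from a human liver tumour and grown without blood cells: LAPTM5, CD3D, CD79A, FCER1G, CD14, TYROBP, CD8A and CSF1R. They were listed by symbol with earlier results of the same data known, so in effect they were chosen by the levels and differences of these arrays, and all 8 were found among 18404 genes measured by probe sets with exactly 1 gene symbol. The highest mean log2 over the 8 arrays was to settle which probe set stood for a gene, but each had a single one. The cells of 4 cultures had been exposed to H2O2, hydrogen peroxide, at 0.5 mM for 60 minutes to make them senescent (to stop dividing for good), then washed and kept for 5 days. The cells of the other 4 cultures had received medium alone. Both groups were the same cell line in medium with foetal calf serum and antibiotics, and the study calls the 4 cultures of each group biological replicates. No other agent or allele is named, and HepG2 is a tumour line, which limits it as a model of hepatocytes.

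LAPTM5 is a lysosomal membrane protein of blood cells that lowers the amount of T and B cell receptors on the surface. CD3D and CD79A are signalling chains of the T cell and the B cell receptor, and FCER1G and TYROBP (DAP12) are adaptors that serve Fc receptors and many receptors of myeloid and natural killer cells. These 4 chains carry the same tyrosine motif, the ITAM, which recruits the kinases ZAP70 or SYK after ligand binding. CD8A is the co-receptor chain of cytotoxic T cells, CSF1R is the macrophage growth factor receptor for CSF1 and IL34, and CD14 hands bacterial lipopolysaccharide to TLR4 and LY96 (MD-2). CD14 is also known to be made by hepatocytes.

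In H2O2-treated cells 5 of the 8 genes were higher and 0 were lower, while 34.0% of all genes were called, 19.2% higher and 14.8% lower (limma, Benjamini-Hochberg adjusted p under 0.05 over all genes). At an unadjusted p under 0.05 the number lower was also 0. LAPTM5 changed most, at 4.82-fold, then CD3D at 2.78-fold, CD79A at 2.17-fold, FCER1G at 1.53-fold and CD14 at 1.20-fold. In untreated cells LAPTM5, CD3D and CD79A lay below the array median, where a signal may be mostly background, so their true folds may differ from these. The 2 groups of arrays did not overlap for the same 5 genes, as for 18.9% of all genes with treated arrays above. TYROBP, CD8A and CSF1R did not pass. Because the genes were listed with this comparison known, their count and adjusted p-values describe where they fell in the whole table and support nothing further. Levels below are log2 values and differences are log2 H2O2 minus untreated with their standard error, n = 4 arrays per group.

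The promoters of the 5 genes that rose are shown because these genes moved in the same direction. Each is RefSeq sequence of build GRCh38.p14, from 250 bases before to 50 bases after the annotated start, 5′ to 3′ on the gene's strand. Capitals mark matches on either strand to AGGAAGT (a core of ETS factors such as SPI1), TGANTCA (AP-1) or TGTGGT (RUNX factors), which do not overlap in these windows.
LAPTM5, chr1:30757725-30758024, minus strand: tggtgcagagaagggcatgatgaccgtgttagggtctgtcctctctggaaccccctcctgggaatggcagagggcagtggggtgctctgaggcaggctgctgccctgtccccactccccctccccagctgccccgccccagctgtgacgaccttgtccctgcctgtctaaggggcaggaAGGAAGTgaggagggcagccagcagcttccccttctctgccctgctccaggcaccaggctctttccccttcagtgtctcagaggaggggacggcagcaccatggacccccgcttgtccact
CD3D, chr11:118342656-118342955, minus strand: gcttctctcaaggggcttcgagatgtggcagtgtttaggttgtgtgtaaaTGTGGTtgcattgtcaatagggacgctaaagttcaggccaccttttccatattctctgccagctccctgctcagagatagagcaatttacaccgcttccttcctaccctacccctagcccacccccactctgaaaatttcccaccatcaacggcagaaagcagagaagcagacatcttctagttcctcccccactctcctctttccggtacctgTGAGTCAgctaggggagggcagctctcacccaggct
CD79A, chr19:41877029-41877328, plus strand: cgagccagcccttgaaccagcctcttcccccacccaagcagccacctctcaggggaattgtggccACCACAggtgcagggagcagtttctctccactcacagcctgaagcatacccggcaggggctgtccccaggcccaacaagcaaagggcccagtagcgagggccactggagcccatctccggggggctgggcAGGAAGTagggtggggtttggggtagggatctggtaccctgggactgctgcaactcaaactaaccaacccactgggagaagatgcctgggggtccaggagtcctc
FCER1G, chr1:161215045-161215344, plus strand: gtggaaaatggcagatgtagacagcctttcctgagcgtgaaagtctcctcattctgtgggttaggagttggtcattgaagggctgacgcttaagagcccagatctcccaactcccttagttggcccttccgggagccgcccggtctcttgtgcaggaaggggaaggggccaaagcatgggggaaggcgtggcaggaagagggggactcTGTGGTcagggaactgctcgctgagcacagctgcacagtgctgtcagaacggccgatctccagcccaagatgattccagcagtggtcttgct
CD14, chr5:140633126-140633425, minus strand: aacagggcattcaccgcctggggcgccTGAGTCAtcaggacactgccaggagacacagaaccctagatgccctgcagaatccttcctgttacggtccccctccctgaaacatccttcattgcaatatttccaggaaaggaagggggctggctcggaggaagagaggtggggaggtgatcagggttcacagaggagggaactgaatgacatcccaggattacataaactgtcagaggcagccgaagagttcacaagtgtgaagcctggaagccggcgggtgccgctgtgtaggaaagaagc

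The LAPTM5 and CD79A windows each held 1 ETS match, beginning at -71 and -55 with the start counted as 0, the CD3D and CD14 windows each held 1 AP-1 match, and the windows of CD3D, CD79A and FCER1G each held 1 RUNX match. All 8 genes had a window and there were 12 windows in all, since CD8A had 4 and CSF1R 2. An ETS match was in 3 of the 12 (the third was TYROBP, which did not pass), against 8.24% of all 35116 promoter windows in the table. AP-1 matches were in 3 of 12 against 7.71%, and RUNX matches in 5 of 12 against 13.1%. The B cell octamer ATGCAAAT was in 0 of 12 (1.77% of all windows), the TATA box letters TATAAA in 0 of 12 (11.5%) and E-boxes, CANNTG, in 9 of 12 (68.7%). An E-box can overlap other motifs. A match is a description of the letters and not a binding site.

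The promoters of the 5 risen genes were also poor in CpG. The observed over expected CpG ratio was 0.13 in CD79A, 0.16 in LAPTM5, 0.25 in CD3D, 0.35 in CD14 and 0.37 in FCER1G, against a median of 0.58 over all windows. Ratios below 0.6 occurred in 51.1% of all windows. Those of genes that did not pass were 0.33 in TYROBP and 0.18 and 0.28 in CSF1R, while the 4 windows of CD8A ranged over 0.24, 0.60, 0.66 and 0.84.

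LAPTM5, which takes part in sorting to lysosomes, had log2 levels of 8.80, 8.60, 8.61 and 8.55 in H2O2-treated replicates 1 to 4, against 6.30, 6.30, 6.44 and 6.44 in untreated replicates 1 to 4. All 4 treated arrays lay above all 4 untreated ones, by far more than the spread within a group. The difference was 2.27 ± 0.074 (limma adjusted p = 9.17e-11). In treated arrays LAPTM5 lay above 74.3% to 77.1% of all probe sets, against 40.1% to 43.3% in untreated arrays. Its relatives LAPTM4A and LAPTM4B, which are found in most cells, gave 0.15 ± 0.063 (adjusted p = 0.0753) and 0.069 ± 0.065 (adjusted p = 0.468). LAPTM4A passed under 4 other settings, among them without H2O2 replicate 3 (adjusted p between 0.00617 and 0.0390). LAPTM5 minus LAPTM4B within an array was -1.94 to -1.65 in treated arrays and -4.17 to -3.90 in untreated arrays, so the 2 relatives changed unequally.

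**Figure D1:**
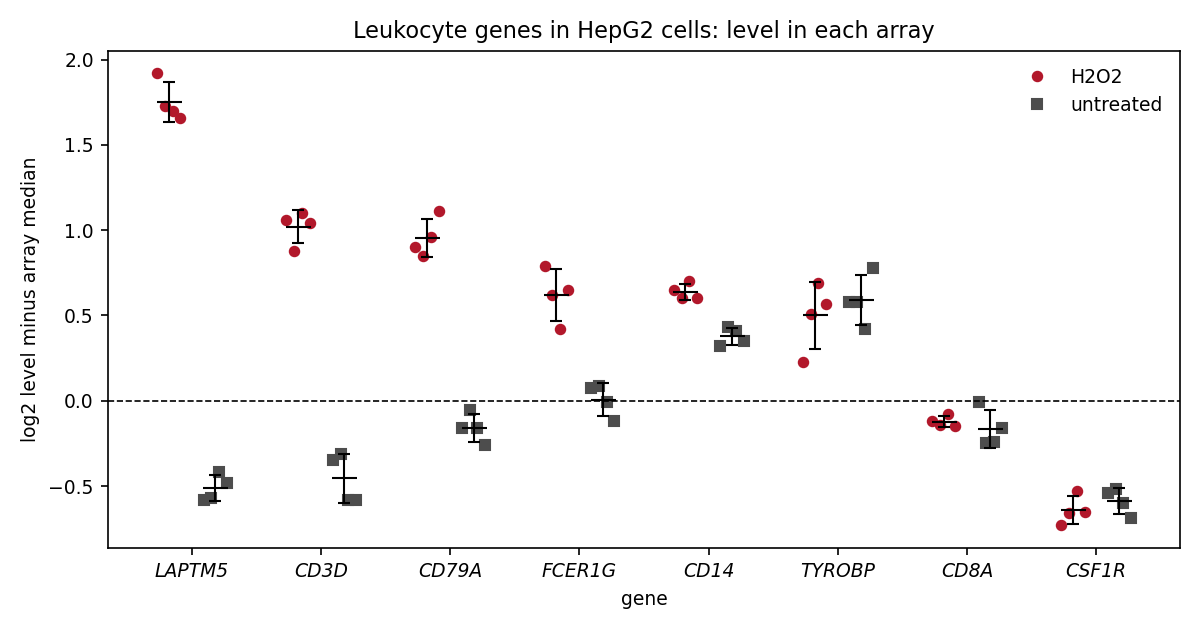
Log2 level minus the array median (vertical axis) for each of the 8 genes, H2O2-treated arrays as red circles and untreated arrays as grey squares, with black bars for the mean and SD of 4 arrays. LAPTM5, CD3D and CD79A lie above the dashed median line in every treated array and below it in every untreated array, and CD8A and CSF1R lie below it in all 8.

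CD3D, the delta chain of CD3, had 7.93, 7.75, 8.01 and 7.94 in treated replicates 1 to 4, against 6.54, 6.57, 6.28 and 6.34 in untreated replicates 1 to 4. The groups were apart by 1.48 ± 0.085 (limma adjusted p = 1.69e-08), with no overlap. The other CD3 chains differed in what they did. CD3G, the gamma chain, rose by 0.62 ± 0.067 (6.26 ± 0.076 in treated and 5.64 ± 0.058 in untreated cells), a level still below the array median. CD3E, the epsilon chain, gave -0.11 ± 0.080 (adjusted p = 0.331) and CD247, the zeta chain, -0.022 ± 0.096 (adjusted p = 0.893). CD3D minus CD3E within an array was 2.09 to 2.27 in treated arrays and 0.54 to 0.65 in untreated arrays.

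Of 17 measured genes for the T cell receptor complex and co-receptors, 5 were higher and 0 lower (median difference 0.039, against -0.022 over all genes). When CD3D and CD8A were left out, 4 of 15 were higher (26.7%, against 19.2% of all genes). With dim genes left out 3 of the 17 were tested, and all 3 were higher. CD3D and LCK were kept in that setting only through their treated levels, so this count adds no separate support. LCK, the kinase that phosphorylates the CD3 motifs, rose by 0.71 ± 0.072 (7.49 ± 0.11 in treated and 6.78 ± 0.051 in untreated cells), and the co-receptor CD4 by 0.53 ± 0.12. ZAP70, the kinase that the motifs recruit, gave 0.12 ± 0.075 (adjusted p = 0.237).

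CD8A itself had 6.75, 6.73, 6.84 and 6.74 in treated replicates 1 to 4, against 6.88, 6.63, 6.62 and 6.77 in untreated replicates 1 to 4. The groups overlapped and all 8 values were below the array median. The difference was 0.043 ± 0.074 (adjusted p = 0.711), with a 95% confidence interval of -0.12 to 0.20. Its partner CD8B gave -0.0082 ± 0.10, a value whose sign changed in 6 of the other settings.

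CD79A, the alpha signalling chain of the B cell receptor, had 7.77, 7.72, 7.87 and 8.01 in treated replicates 1 to 4, against 6.73, 6.82, 6.69 and 6.66 in untreated replicates 1 to 4. Every treated value exceeded every untreated one, and the difference was 1.12 ± 0.076 (limma adjusted p = 9.89e-08). CD79B, with which CD79A forms a pair in B cells, had 6.98 ± 0.099 in treated and 6.88 ± 0.075 in untreated cells (0.095 ± 0.072, adjusted p = 0.356). CD79A minus CD79B within an array was 0.78 to 1.02 in treated arrays and -0.26 to -0.076 in untreated arrays, so the chains of the pair changed unequally.

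Of 10 measured B cell receptor genes without CD79A, 2 were higher, near the share of all genes (19.2%), and 1 was lower (14.8% of all genes). With CD79A, 3 of 11 were higher and 1 was lower (median -0.0071). The third and largest rise, beside CD79A and the kinase LYN (0.51 ± 0.11), was that of CD22, an inhibitory co-receptor, at 1.26 ± 0.071 (7.44 ± 0.083 in treated and 6.18 ± 0.088 in untreated cells). The adaptor DAPP1 fell by 0.23 ± 0.076, a call that was lost in 6 other settings, 5 of them with 1 array left out (without H2O2 replicate 2 or 4, or without untreated replicate 1, 2 or 3, adjusted p up to 0.107).

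FCER1G, the gamma chain shared by Fc receptors, had 7.67, 7.49, 7.33 and 7.55 in treated replicates 1 to 4, against 6.96, 6.96, 6.84 and 6.80 in untreated replicates 1 to 4. The groups did not overlap, and the untreated values lay within 0.12 of the array median. The difference was 0.62 ± 0.080 (limma adjusted p = 3.49e-05), and 5.05% of all genes rose by at least as much.

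TYROBP, the other adaptor, had 7.10, 7.38, 7.61 and 7.46 in treated replicates 1 to 4, against 7.47, 7.46, 7.28 and 7.70 in untreated replicates 1 to 4. The groups overlapped, and TYROBP varied more between replicates than any of the other 7 genes (SD 0.21 in treated and 0.17 in untreated cells). The difference was -0.087 ± 0.11 (adjusted p = 0.602, 95% confidence interval -0.32 to 0.15), and it turned to 0.0086 without H2O2 replicate 1. HCST (DAP10), an adaptor whose gene lies next to TYROBP, rose by 0.44 ± 0.076, and TREM2, a receptor that signals through TYROBP, by 0.68 ± 0.11. TREM2 stayed below the array median, at 6.57 ± 0.18 in treated and 5.89 ± 0.19 in untreated cells. Of 13 measured genes for these adaptors and their partners 3 were higher and 0 lower (median -0.036), or 1 of the 3 still tested with dim genes left out. Without FCER1G and TYROBP 2 of 11 were higher (18.2%, against 19.2% of all genes). SYK, the kinase downstream, gave -0.092 ± 0.087 (adjusted p = 0.474).

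**Figure D2:**
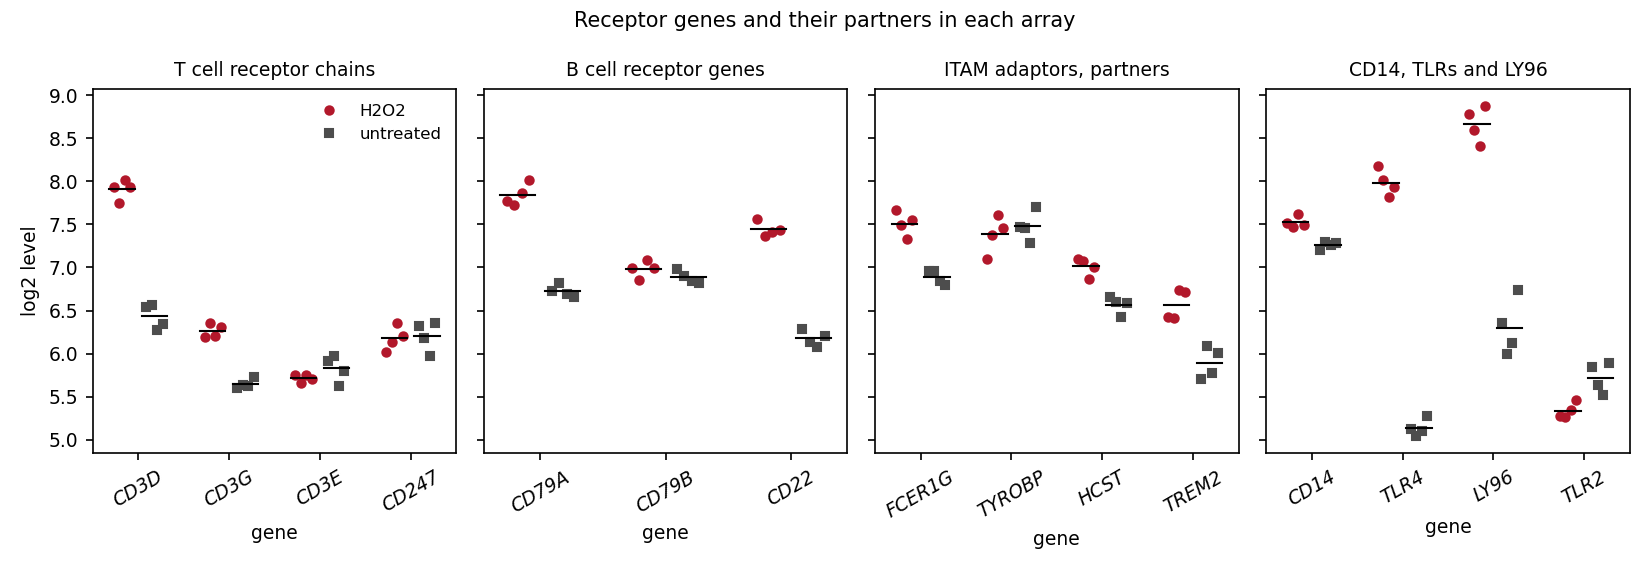
Log2 level (vertical axis) of receptor and adaptor genes and their partners in 4 H2O2-treated arrays (red circles) and 4 untreated arrays (grey squares), with a black line at each group mean. CD3D and CD79A differ between the groups while CD3E, CD247 and CD79B overlap, and TLR4 and LY96 stand farther apart than CD14.

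CD14 had 7.52, 7.47, 7.62 and 7.49 in treated replicates 1 to 4, against 7.20, 7.30, 7.26 and 7.28 in untreated replicates 1 to 4. The groups did not overlap, though the difference was small, at 0.27 ± 0.064 (limma adjusted p = 0.00522), and all 8 values were above the array median. TLR4, the signalling receptor for lipopolysaccharide, had 8.18, 8.01, 7.82 and 7.93 in treated replicates 1 to 4, against 5.13, 5.04, 5.10 and 5.28 in untreated replicates 1 to 4, a difference of 2.85 ± 0.085 (limma adjusted p = 4.14e-11). LY96, the subunit of TLR4 that holds the ligand, rose by 2.36 ± 0.14 (8.67 ± 0.21 in treated and 6.30 ± 0.33 in untreated cells). MYD88, an adaptor of TLR4 signalling, rose by 0.24 ± 0.065, and TIRAP, another adaptor, gave 0.015 ± 0.066 (adjusted p = 0.897).

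In untreated cells TLR4 and LY96 lay below the array median, where a signal may be mostly background, so their true fold may differ. LBP, the plasma protein that brings lipopolysaccharide to CD14, rose by 0.78 ± 0.077 and TLR6 by 0.69 ± 0.070, and TLR2, the receptor for bacterial lipopeptides, fell by 0.39 ± 0.089. LBP, TLR6 and TLR2 lay below the array median in both groups. In the list for CD14 and lipopolysaccharide recognition 10 of 12 measured genes were higher and 1 was lower (median 0.37), and 9 of 11 were higher without CD14. Of all genes 19.2% were called higher. When dim genes were left out of the fit, 6 of this list were called higher and 0 lower, since fewer of its genes were then tested. LY96 was kept there only through its treated level.

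CSF1R had 6.14, 6.22, 6.39 and 6.25 in treated replicates 1 to 4, against 6.35, 6.36, 6.25 and 6.23 in untreated replicates 1 to 4. The groups overlapped below the array median, and CSF1R lay above 38.6% to 41.5% of probe sets in treated arrays and 38.6% to 41.3% in untreated arrays. The difference was -0.048 ± 0.072 (adjusted p = 0.667, 95% confidence interval -0.20 to 0.11). CSF1, its ligand, rose by 1.08 ± 0.080 (9.56 ± 0.13 in treated and 8.49 ± 0.10 in untreated cells). IL34, the other ligand, gave -0.052 ± 0.062 (adjusted p = 0.578). CSF3R, the granulocyte growth factor receptor, fell by 0.80 ± 0.081 (7.25 ± 0.068 in treated and 8.05 ± 0.15 in untreated cells). In the list of CSF1R, its ligands and related receptors 2 of 10 were higher and 1 was lower, against 19.2% and 14.8% of all genes. The number higher was 1 without H2O2 replicate 4 or without untreated replicate 1, 2 or 4. The ubiquitin ligase CBL (0.36 ± 0.11) then missed the threshold (adjusted p up to 0.0675).

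**Figure D3:**
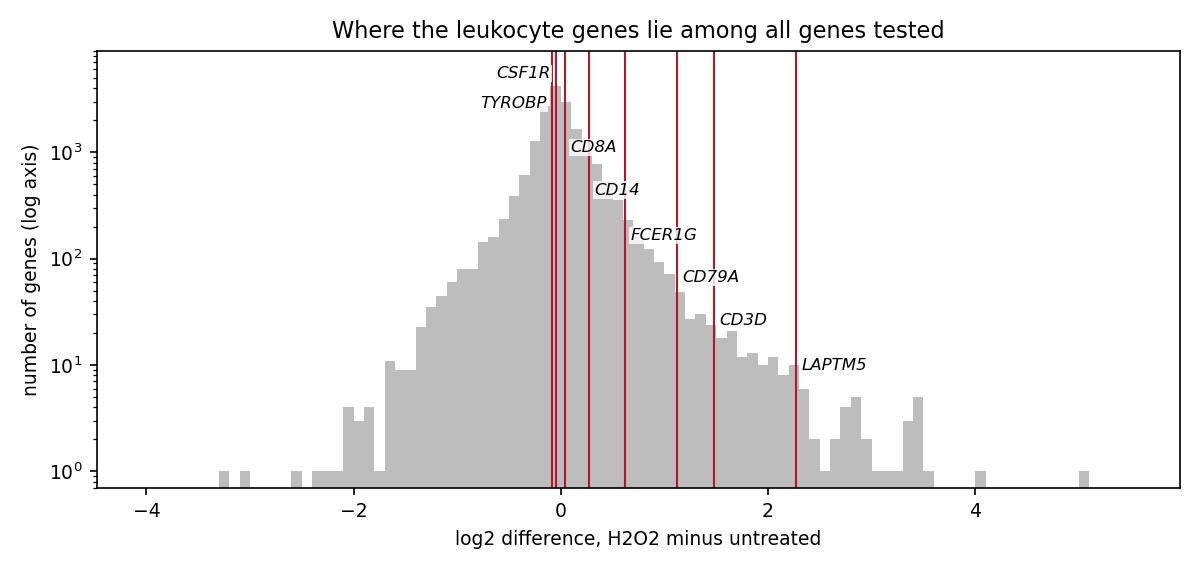
Number of genes (vertical log axis) by log2 difference, H2O2 minus untreated, for all 18404 genes, with red lines at the 8 leukocyte genes. LAPTM5 at 2.27, CD3D at 1.48 and CD79A at 1.12 lie in the upper tail, and CD8A, CSF1R and TYROBP lie at the centre.

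The levels bear only in part on whether these genes are expressed, since the files hold no detection call and probe sets differ in brightness. In treated cells 6 of the 8 genes exceeded the array median in every array, against 2, CD14 and TYROBP, in untreated cells. Measured against the median of named genes, which is brighter than that of all probe sets, the counts were 3 in treated and 0 in untreated cells. Measured against the 75th percentile of 26 genes restricted to tissues other than liver and blood, such as muscle and sperm genes, they were 7 in treated and 5 in untreated cells. Of those 26 genes, 2 exceeded the array median in every treated array and 2 in every untreated array, so a level above it does not show expression. CD8A and CSF1R were below the array median in all 8 arrays, and their expression was not shown either. CD8A nevertheless exceeded that 75th percentile in all 8 arrays, so the references differ for it. The 8 are called leukocyte genes here only for where they are known to act.

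Markers of whole leukocytes did not share one direction. PTPRC (CD45), which is found on all nucleated blood cells, had 4.09 ± 0.12 in treated and 4.23 ± 0.080 in untreated cells (-0.14 ± 0.076, adjusted p = 0.178). SPI1 (PU.1), a transcription factor of myeloid and B cells, gave -0.13 ± 0.075 (adjusted p = 0.208). Over the 9 leukocyte lists together, without the 8 genes, 28 of 112 measured genes were higher (25.0%) and 5 lower (4.46%), against 19.2% and 14.8% of all genes. Without the list for CD14 and lipopolysaccharide recognition, a split chosen after seeing the data, 19 of 101 were higher (18.8%) and 4 lower (3.96%). The median difference of the 112 genes was -0.013, against -0.022 over all genes, and the mean log2 level of these 112 genes was 6.41 to 6.52 in treated arrays and 6.25 to 6.31 in untreated arrays. Most of the 112 were dim: their median level was 6.24, against 7.52 over all genes. Only 22 of them exceeded the array median in every untreated array. Whether low levels kept the share called lower small was not tested. The part of blood cells in these values was not tested, and more cells expressing a gene cannot be told apart from more RNA per cell in bulk samples.

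Of 19 measured pan-leukocyte markers 6 were higher (31.6%, against 19.2% of all genes) and 1 was lower (median 0.048). Beside LAPTM5 these were ARHGDIB at 1.38 ± 0.076, the actin bundler LCP1 at 0.97 ± 0.073, the small GTPase RAC2 at 0.73 ± 0.067, the surface peptide CD52 at 0.71 ± 0.091 and LSP1 at 0.35 ± 0.086, while the integrin chain ITGAL fell by 0.34 ± 0.072. ARHGDIB, at 6.20 ± 0.066 in treated and 4.81 ± 0.13 in untreated cells, and CD52 stayed at or below the array median. Of 11 effector markers of T and natural killer cells 2 were higher (18.2%, near the share of all genes) and 0 lower (median -0.00097). These were the pore-forming protein PRF1 at 1.66 ± 0.074 (8.32 ± 0.11 in treated and 6.66 ± 0.080 in untreated cells) and the chemokine receptor CCR7 at 1.31 ± 0.067 (7.95 ± 0.062 in treated and 6.64 ± 0.073 in untreated cells). In untreated cells PRF1 and CCR7 lay below the array median, where a signal may be mostly background, so their true folds may differ.

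Among 17 macrophage and Kupffer cell markers 2 were higher, CD14 and CD68 (11.8%, against 19.2% of all genes), and 1 was lower (median -0.051). CD68, a lysosomal protein that many cells also make, rose by 0.80 ± 0.071 (10.36 ± 0.087 in treated and 9.56 ± 0.082 in untreated cells), and the phagocytic receptor TIMD4 fell by 0.44 ± 0.076. LYZ, lysozyme, was the brightest gene of that list, at 12.83 ± 0.067 in treated and 12.90 ± 0.015 in untreated cells (adjusted p = 0.460). Of 13 haematopoietic transcription factors 1 was higher (7.69%, against 19.2% of all genes) and 0 were lower (against 14.8%), with a median of -0.071. The higher one was RUNX1, at 0.22 ± 0.073. That call was lost with the replicate number as a block and after quantile normalization, and without H2O2 replicate 2, 3 or 4 or untreated replicate 2 (adjusted p up to 0.109).

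Lysosomal partners of LAPTM5 were bright in both groups. In the list of the LAPTM family and its partners 5 of 8 were higher and 0 lower (median 0.23). Without LAPTM5 4 of 7 were higher (57.1%, against 19.2% of all genes), led by the membrane proteins CD63 (0.84 ± 0.061) and LAMP1 (0.68 ± 0.062). The count of higher genes among the 8 was 3 with the replicate number as a block. It was also 3 without H2O2 replicate 2 or 4 or without untreated replicate 2 or 4.

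For comparison, hepatocyte markers were higher in 1 and lower in 7 of 10 cases, against 19.2% and 14.8% of all genes. ALB, albumin, was at 12.31 ± 0.081 in treated and 12.55 ± 0.034 in untreated cells. Erythroid and platelet markers were called in 0 of 5 cases, with HBB at 5.63 ± 0.19 in treated and 5.62 ± 0.073 in untreated cells. Endothelial markers were higher in 0 and lower in 1 of 6, with PECAM1 at 6.45 ± 0.073 in treated and 6.35 ± 0.21 in untreated cells. At an unadjusted p under 0.05 none of the erythroid and platelet markers passed either. The rise of TTR, a thyroid hormone carrier (0.26 ± 0.084), missed the threshold without H2O2 replicate 1 or 2 or untreated replicate 3 or 4 (adjusted p up to 0.0852). The fall of CDH5, an endothelial cadherin (-0.25 ± 0.073), missed it without H2O2 replicate 1 or untreated replicate 4 (adjusted p up to 0.0713). Genes restricted to other tissues were called in 0 of 26, with 1 lower at an unadjusted p under 0.05. Without H2O2 replicate 3, 4 of them were called lower, and without untreated replicate 3, 1.

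**Figure D4:**
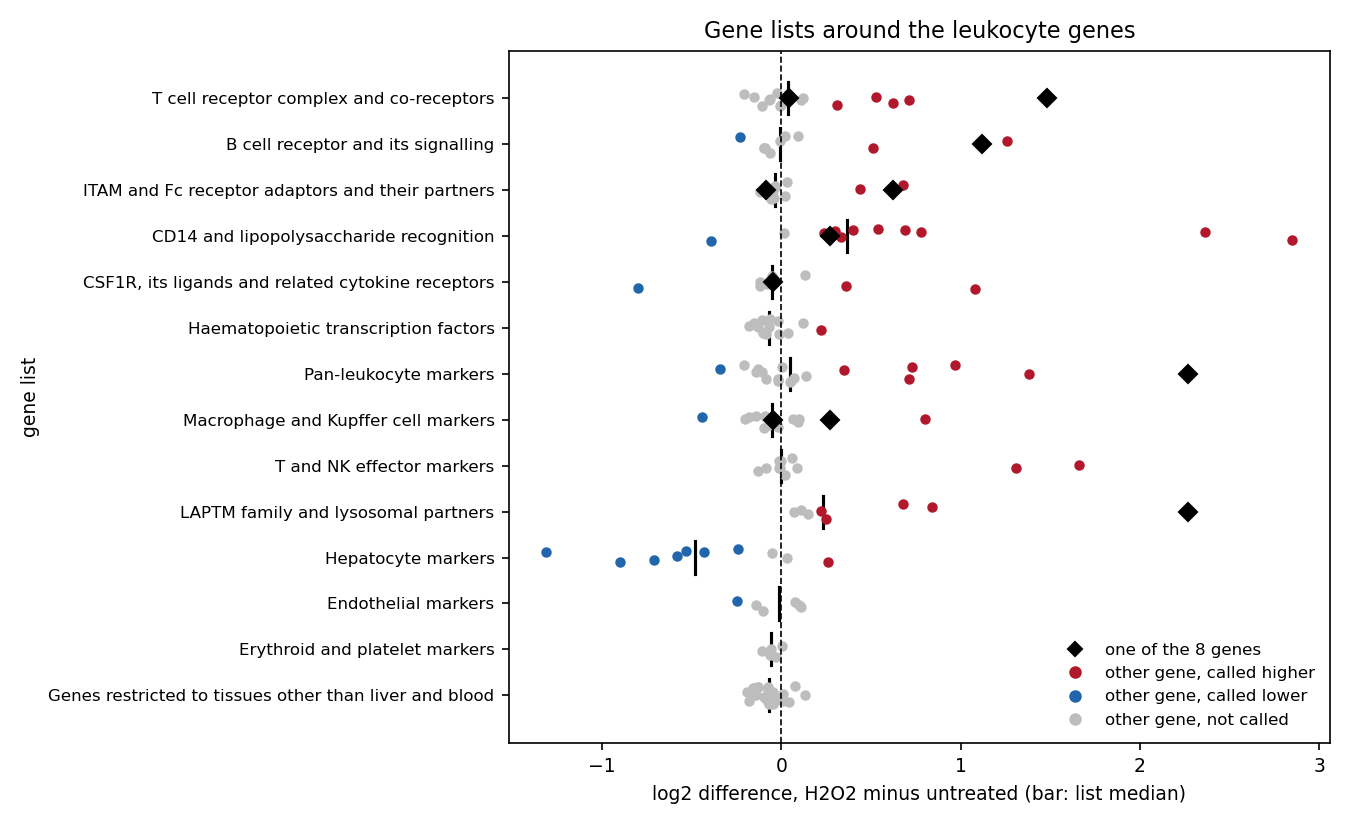
Log2 difference, H2O2 minus untreated (horizontal axis), of each measured gene in 14 gene lists, with the 8 leukocyte genes as black diamonds, called genes in red (higher) or blue (lower), other genes in grey and list medians as black bars. Most leukocyte lists have medians near 0 with a few genes to the right, and the list for CD14 and lipopolysaccharide recognition has its median at 0.37.

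The genes whose profile over the 8 arrays was most like that of the 3 largest risers, by the root mean square difference of log2 values centred on each gene's mean, came from other groups. For LAPTM5 they were IGFBP7, a secreted binding protein of insulin-like growth factors (0.067), CDA, cytidine deaminase (0.075), and the calcium-binding protein S100A3 (0.075). For CD3D they were the neurotrophin receptor NGFR (0.082), the phospholipase PLCD3 (0.088) and the kinase PLK3 (0.11). For CD79A they were the transcription factor CREB5 (0.057), the cytochrome P450 CYP2S1 (0.078) and the cytokine receptor IL31RA (0.079). These measures are descriptions over 8 arrays that fall into 2 groups.

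The nearest protein-coding genes on the chromosome, taken from the RefSeq gene order, were higher in 5 and lower in 3 of 15 measured cases. Of all genes 19.2% were called higher and 14.8% lower. Beside LAPTM5, SDC3, a heparan sulfate carrier, rose by 0.96 ± 0.077 and MATN1 gave -0.14 ± 0.081. CD3D lies between CD3E and CD3G, of which only CD3G passed. The neighbours of CD79A did not pass, with the ribosomal protein RPS19 at -0.046 ± 0.064 and ARHGEF1 at -0.059 ± 0.062, and APOA2, next to FCER1G, gave 0.011 ± 0.062. Next to CD14, TMCO6 fell by 0.53 ± 0.074, next to CD8A RMND5A fell by 0.72 ± 0.10, and next to CSF1R the growth factor receptor PDGFRB fell by 1.15 ± 0.088. Of the 5 higher calls, LRFN3 beside TYROBP and HMGXB3 beside CSF1R were lost in 10 and 9 of 14 other settings, most of them with 1 array left out, at adjusted p up to 0.151 and 0.0993.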

How the data were processed

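Per the labels' protocols, total RNA of each culture was converted through cRNA into biotin-labelled single-stranded sense cDNA and hybridised to 1 single-channel array. The deposited table holds log2 values of 32321 probe sets in 8 arrays. Their summarization and normalization are not given in the sources used here. The submitters' processing notes list limma, without saying for which step. Array medians lay between 6.85 and 6.93. Pearson's r over probe sets was 0.990 to 0.996 within a group and 0.979 to 0.985 between groups, and any pair of arrays had at most 0.00619% of values in common. The number of arrays limits the precision.

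The platform annotation gave 1 symbol to 19158 probe sets, several to 1388 and none to 11775, and RefSeq (GRCh38.p14) held the Entrez identifiers of 19128. The probe set of highest mean stood for its gene. H2O2 minus untreated was fitted on all 18404 genes with limma 3.58.1 (R 4.3.3), 1 mean per group, empirical Bayes moderation and Benjamini-Hochberg adjustment, and a gene was called below an adjusted p of 0.05. On simulated data with independent noise the fit recovered 80% of 100 genes changed by 0.5 log2 and 98% of 100 changed by 1.0. A far smaller share of genes was changed there than was called in the real arrays. The simulation therefore does not show how the fit performs at the real share. Tables and figures used Python 3.11.15.

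The 8 genes, the gene lists and the tests were chosen with earlier results of these data known. The rule names the 8 genes, PTPRC, SPI1, CD68, ALB, PECAM1 and HBB, up to 2 called rises and 2 called falls per list, and the 3 nearest profiles of the 3 largest changes. Further list genes, such as LCP1, LYN, LYZ and ZAP70, were named outside that rule. Partner genes, chromosomal neighbours and motifs were chosen after values were seen. Same-numbered arrays did not deviate together (r -0.247 to 0.094 over genes), so they were not paired. The alternatives were a replicate block, quantile normalization, median centring, trended robust moderation, leaving out dim genes, averaging probe sets and leaving out each array.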

Additional observations from a re-analysis of the deposited data

Results flagged for a closer look

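In 3 of 144 groups of 4 arrays checked, 1 array stood apart from the other 3 by more than Dixon's critical value at the 95% level for the gap over the range; chance flags about 1 in 20. None of the 8 leukocyte genes was among them. CD68 was 9.68 in untreated replicate 3, against 9.51 to 9.52 in the other untreated arrays, and still below every treated array. CYP2S1 was 8.29 in untreated replicate 4, against 8.20 to 8.21 in the others, and TMCO6 was 9.24 in untreated replicate 4, against 8.98 to 9.01.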

How the results depend on the processing

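The count of leukocyte genes called higher was 5, and called lower 0, under all 14 alternatives. With the replicate number as a block it was also 5, the genes called over the whole table were 5758 against 6259, and not every array deviated most like the array of its own number. Leaving out 1 array gave 5404 to 6755 genes called, and all alternatives kept that count within 1.5 times. CD14 had the weakest call of the 5, at adjusted p = 0.00212 to adjusted p = 0.0229 over the alternatives. Leaving out dim genes, those with a mean over all 8 arrays not above the median of all values, kept 11250 genes and 6 of the 8. CD8A and CSF1R thus had no value there. LAPTM5, CD3D and CD79A lay below the array median in untreated arrays and were kept only through their treated levels. Their calls in that setting therefore add no separate support. Of 110 other values of the 8 genes, 109 kept direction and side of the threshold, and TYROBP turned to 0.0086 without H2O2 replicate 1 (-0.16 to 0.0086 with 1 array left out). Against the median of named genes, the genes above it in every array numbered 3 in treated and 0 in untreated cells, and against the 75th percentile of genes restricted to other tissues 7 in treated and 5 in untreated cells, since these references lie higher and lower than the array median. Differences near 0 changed sign with 1 array left out, over ranges of -0.085 to 0.049 for HBB, -0.0091 to 0.036 for APOA2, -0.11 to 0.063 for CD8B and -0.10 to 0.033 for CD247. CD8B turned to 0.0040 and CD247 to 0.0028 after quantile normalization. For these the cause was not tested. Counts of lower genes also moved with 1 array left out: without H2O2 replicate 3 to 1 T cell receptor gene, 2 haematopoietic transcription factors, 2 endothelial and 1 erythroid or platelet marker, without untreated replicate 3 to 1 T cell receptor gene and 3 macrophage markers, and without untreated replicate 4 to 2 pan-leukocyte markers. NDUFA2 passed in 2 settings and PECAM1 with all probe sets averaged (adjusted p = 0.00671). Without detection calls, levels below the array median are not shown to lie above background.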
